A study of Homo sapiens with 8 samples.

Results

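The aldo-keto reductases described here are 9 human genes, AKR1A1, AKR1B1, AKR1B10, AKR1C1, AKR1C2, AKR1C3, AKR1C4, AKR7A2 and AKR7A3, picked by symbol from 18902 features with expression values. Their levels in the libraries with and without Flag-OGT were known when they were picked, so those levels are given as a description and carry no test. The cells were MHCC-97H and MHCC-97L, established human hepatocellular carcinoma lines of high and low metastatic potential, and their RNA was sequenced in 4 groups of 2 libraries. The groups were MHCC-97H, MHCC-97H with Flag-OGT, MHCC-97L and MHCC-97L with Flag-OGT. Flag-OGT is wild-type, full-length human O-GlcNAc transferase, the enzyme that adds single N-acetylglucosamine sugars to nuclear and cytosolic proteins, with a 3×Flag tag at its C terminus. It was carried stably by a lentiviral vector that also encodes luciferase, under neomycin selection, and the labels do not tell a clone from a pool of selected cells. Libraries without this label serve as controls, and the use of an empty vector in them is not given. All cells grew in DMEM with 10% fetal calf serum. Levels are the deposited FPKM, a measure scaled to transcript length and library size, given per library or as mean ± SD (n = 2). Read depth is unknown.

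Aldo-keto reductases are cytosolic enzymes that use NADPH to reduce aldehydes and ketones to alcohols. Their substrates include glucose, retinal, steroids, prostaglandins and the reactive aldehydes left by lipid peroxidation and by toxins such as aflatoxin. Several of the genes are induced by the oxidative stress factor NRF2, and AKR1B10 is known as a gene raised in liver cancer.

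Libraries of a group resembled each other closely, with correlations of log2(FPKM + 1) from 0.997 to 0.999 across genes. Libraries of the same state from different lines correlated at 0.957 to 0.963, while those of 1 line in different states reached 0.725 to 0.753. OGT itself was 33.3 ± 1.15 FPKM in MHCC-97H controls against 58.7 ± 0.467 with Flag-OGT, and 44.8 ± 1.29 against 52.7 ± 2.54 in MHCC-97L. Of 15 hepatocyte markers, 7 reached a mean of 1 FPKM in MHCC-97H controls and 11 in MHCC-97L controls, but 2 in each Flag-OGT group. Their summed level was 101 to 106 and 224 to 230 FPKM in the control libraries and 15.5 to 15.7 and 12.1 to 16.7 FPKM in the Flag-OGT libraries. HNF4A, a factor that defines hepatocytes, was 14.6 ± 0.0283 and 13.6 ± 0.346 FPKM in controls and 0.035 ± 0.00707 and 0.015 ± 0.00707 FPKM with Flag-OGT; the albumin gene ALB was under 0.1 FPKM in both Flag-OGT groups on average. Epithelial markers summed to 5690 to 5982 and 6644 to 6708 FPKM in controls against 28.8 to 30.2 and 20.9 to 32.3 FPKM with Flag-OGT. Fibroblast markers summed to 9.09 to 12.2 and 4.54 to 5.33 FPKM in controls and to 20.6 to 20.9 and 14.6 to 15.4 FPKM with Flag-OGT. Within that list LUM made up most of the control level (10 and 4.48 FPKM, against 0.035 and 0.04), and ACTA2 (0 and 0.08 FPKM, against 15.6 and 8.81) and COL1A1 (0.045 and 0.165 FPKM, against 3.95 and 6.04) went the other way, with COL1A2 at a mean of 0.035 FPKM or less in every group. Leukocyte markers summed to 80.2 to 82.5 and 69.3 to 69.9 FPKM in controls against 3.48 to 3.89 and 8.67 to 9.64 FPKM, with CD3E at 0 in both Flag-OGT groups. Endothelial markers summed to 33.5 to 33.7 and 44.1 to 46.4 FPKM against 0.66 to 0.83 and 1.48 to 1.57 FPKM, with CDH5 at 0. The part of these shifts in the results below was not tested. In this design a change with Flag-OGT and a difference in the origin of the cells cannot be told apart, and neither can fewer cells that express a gene and less RNA per cell.

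The AKR1C genes are related copies, near-identical in the case of AKR1C1 and AKR1C2, which bears on how their levels can be read. Over their 969 coding bases (GENCODE release 29 transcripts), AKR1C1 and AKR1C2 differed at 19 positions and were 98% identical. AKR1C1 was 91.4% identical to AKR1C3 and 88.5% to AKR1C4. The stretch in which AKR1C1 and AKR1C2 differ most, coding bases 103 to 162, is shown with the differences from AKR1C1 in capitals; it holds 10 of their 19 differences, 7 of the 83 of AKR1C3 and 5 of the 111 of AKR1C4.
AKR1C1: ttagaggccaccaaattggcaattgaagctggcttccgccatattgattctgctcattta
AKR1C2: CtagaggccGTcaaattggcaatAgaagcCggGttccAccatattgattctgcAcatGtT
AKR1C3: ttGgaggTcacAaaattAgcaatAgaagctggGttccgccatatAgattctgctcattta
AKR1C4: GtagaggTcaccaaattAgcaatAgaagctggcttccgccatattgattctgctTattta
All stretches of 50 coding bases were sought in transcripts of other aldo-keto reductase genes, pseudogenes included. Unchanged matches were found for 54.3% in AKR1C1, 57.1% in AKR1C2, 23% in AKR1C3, 17.6% in AKR1C4 and 28.5% in AKR1B10. The shares were 31.5% in AKR7A3, 10.2% in AKR7A2 and 7.23% in AKR1B1, which shared most with the pseudogene AKR1B1P1, and AKR1A1 had none. The sources used here do not give how reads that fit several genes were divided. The split between AKR1C1 and AKR1C2, between AKR1B10 and its neighbour AKR1B15, and between AKR7A3 and AKR7L is therefore uncertain.

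The regions before the transcription starts of the AKR1C genes also resembled each other, most closely in AKR1C1 and AKR1C2. RefSeq (GRCh38.p14) gave 11 windows for 8 of the 9 genes, each of the 250 bases before a start; AKR1B10 has none in that table. The windows of AKR1C1 and AKR1C2 were identical at 245 of 246 aligned bases (99.6%). That of AKR1C3 shown here was 79.1% identical to AKR1C1, and that of AKR1C4 68%. They are shown because these 4 genes went down together and are set against AKR1B1, which went down less, and AKR7A2 and AKR1A1, which went up. Capitals mark matches on either strand to the CCAAT box, to the TATA box as TATAAA, to the antioxidant response core TGACNNNGC that NRF2 binds, to the AP-1 site TGANTCA, which can share bases with that core, and to GGAGGAGG, a core of the site known for ZNF263, the zinc-finger protein that the series studies beside OGT.
AKR1C1, chr10:4963165-4963414 (+ strand): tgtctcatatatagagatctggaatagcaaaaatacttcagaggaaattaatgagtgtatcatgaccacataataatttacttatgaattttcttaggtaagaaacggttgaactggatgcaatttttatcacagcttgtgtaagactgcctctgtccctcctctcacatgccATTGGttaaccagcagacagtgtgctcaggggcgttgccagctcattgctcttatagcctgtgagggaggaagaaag
AKR1C2, chr10:5003858-5004107 (- strand): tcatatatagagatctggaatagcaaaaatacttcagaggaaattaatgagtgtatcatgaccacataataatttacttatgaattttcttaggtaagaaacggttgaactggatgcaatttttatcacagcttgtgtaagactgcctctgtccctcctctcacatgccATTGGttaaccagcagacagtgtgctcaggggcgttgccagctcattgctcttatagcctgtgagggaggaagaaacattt
AKR1C3, chr10:5094164-5094413 (+ strand): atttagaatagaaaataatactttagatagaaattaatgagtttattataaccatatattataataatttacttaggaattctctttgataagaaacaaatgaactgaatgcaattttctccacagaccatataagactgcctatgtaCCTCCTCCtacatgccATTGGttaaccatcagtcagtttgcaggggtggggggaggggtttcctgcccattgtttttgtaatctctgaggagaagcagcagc
AKR1C4, chr10:5196587-5196836 (+ strand): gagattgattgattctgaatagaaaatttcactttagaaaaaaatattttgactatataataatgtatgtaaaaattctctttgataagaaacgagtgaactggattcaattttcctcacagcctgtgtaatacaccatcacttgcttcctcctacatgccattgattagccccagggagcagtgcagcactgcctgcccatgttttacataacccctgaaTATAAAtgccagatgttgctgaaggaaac
AKR1B1, chr7:134459101-134459350 (- strand): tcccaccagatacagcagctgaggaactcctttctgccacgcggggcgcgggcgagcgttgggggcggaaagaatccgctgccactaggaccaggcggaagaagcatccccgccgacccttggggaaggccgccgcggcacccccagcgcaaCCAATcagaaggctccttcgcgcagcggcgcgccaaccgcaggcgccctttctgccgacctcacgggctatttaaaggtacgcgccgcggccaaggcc
AKR7A2, chr1:19312147-19312396 (- strand): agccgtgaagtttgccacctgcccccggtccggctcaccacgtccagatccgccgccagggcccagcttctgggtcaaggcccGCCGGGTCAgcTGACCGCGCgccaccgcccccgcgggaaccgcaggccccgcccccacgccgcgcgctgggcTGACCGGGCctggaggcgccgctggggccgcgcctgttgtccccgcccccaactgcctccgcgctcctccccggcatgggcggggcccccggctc
AKR1A1, chr1:45550576-45550825 (+ strand): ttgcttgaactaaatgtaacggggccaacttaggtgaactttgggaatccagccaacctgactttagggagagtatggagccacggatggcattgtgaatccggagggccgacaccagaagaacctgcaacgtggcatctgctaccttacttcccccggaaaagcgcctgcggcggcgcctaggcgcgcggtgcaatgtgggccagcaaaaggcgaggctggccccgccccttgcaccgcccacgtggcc
A CCAAT match, read as ATTGG on the other strand, stood at bases -77 to -73 of AKR1C1, -81 to -77 of AKR1C2 and -86 to -82 of AKR1C3, counted back from the start. Another AKR1C3 start, not shown, had CCAAT at -73 to -69 and TATAAA on the other strand at -26 to -21. AKR1C4 had no CCAAT match, and a TATAAA at -29 to -24. AKR1B1 had a CCAAT at -98 to -94. AKR7A2 had 3 matches to the antioxidant response core, while the windows of AKR1A1 and AKR7A3 matched none of the 5 patterns. The only GGAGGAGG match lay in AKR1C3, on the other strand at -102 to -95. For comparison, 32% of 35116 RefSeq windows of this length held CCAAT, 10.7% TATAAA, 10.9% the antioxidant response core, 6.57% TGANTCA and 9.45% GGAGGAGG. A match is only a run of letters and shows no binding.

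In the control libraries of both lines AKR1B10 was among the most abundant transcripts of the cell, and it was near 2 FPKM where Flag-OGT was present. AKR1B10 encodes a reductase of retinal and other aldehydes that normally serves the gut lining. Control libraries of MHCC-97H held 3061.24 and 3489.86 FPKM of it, against 1.37 and 2.17 FPKM with Flag-OGT. Those of MHCC-97L held 4868.19 and 4614.27 FPKM, against 2.96 and 2.71 FPKM with Flag-OGT. Controls and Flag-OGT libraries lay far apart in both lines: the mean was 1851-fold lower with Flag-OGT in MHCC-97H and 1672-fold lower in MHCC-97L. Ranked among all genes of its library, AKR1B10 stood 9th in both MHCC-97H controls and 5th and 4th in the MHCC-97L controls, and between place 9400 and place 11218 in the Flag-OGT libraries.

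AKR1B1, the aldose reductase that turns glucose into sorbitol, was also lower with Flag-OGT but stayed well expressed. The MHCC-97H controls had 758.59 and 802.63 FPKM and the Flag-OGT libraries 135.10 and 135.63 FPKM. In MHCC-97L the controls had 2279.87 and 2190.03 FPKM and the Flag-OGT libraries 134.81 and 131.35 FPKM. The groups did not overlap in either line, and the mean was 5.77-fold lower with Flag-OGT in MHCC-97H and 16.8-fold lower in MHCC-97L. All 4 Flag-OGT libraries thus lay between 131.35 and 135.63 FPKM, from control levels that differed 2.86-fold between the lines. The ratio of AKR1B10 to AKR1B1 was 4.04 and 4.35 in the MHCC-97H controls and 2.14 and 2.11 in the MHCC-97L controls, and 0.0101 to 0.022 in the Flag-OGT libraries. AKR1B15, a close relative next to AKR1B10 on chromosome 7, is no member; its mean went from 200 ± 1.17 to 1.12 ± 0.205 FPKM and from 291 ± 35.5 to 1.5 ± 0.0424 FPKM.

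The AKR1C genes encode hydroxysteroid dehydrogenases that activate or inactivate steroid hormones by reducing their keto groups. AKR1C1, which inactivates progesterone, was the second of the 9 in level in MHCC-97H controls, with 2252.10 and 2193.51 FPKM, against 1.05 and 0.95 FPKM with Flag-OGT. MHCC-97L had 1962.79 and 1899.87 FPKM in controls and 1.61 and 0.91 FPKM with Flag-OGT. The Flag-OGT means were 2223-fold and 1533-fold lower.

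AKR1C3 makes testosterone and prostaglandin F. MHCC-97H had 827.20 and 873.26 FPKM in controls against 0.46 and 0.38 FPKM with Flag-OGT. Its MHCC-97L controls had 839.50 and 817.81 FPKM and the Flag-OGT libraries 1.05 and 0.65 FPKM. The mean was 2024-fold and 975-fold lower with Flag-OGT. Control levels of AKR1C3 in the 2 lines overlapped.

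AKR1C2, which inactivates dihydrotestosterone, was 184.76 and 194.52 FPKM in MHCC-97H controls and 0.04 and 0.08 FPKM with Flag-OGT. MHCC-97L had 195.26 and 187.94 FPKM in controls and 0.24 and 0.18 FPKM with Flag-OGT. The mean was 3161-fold lower with Flag-OGT in MHCC-97H and 912-fold lower in MHCC-97L, but values this close to 0 are few steps of the 0.01 FPKM to which the table is rounded, so these folds are coarse. In all 4 control libraries AKR1C1 exceeded AKR1C2 by 10.1 to 12.2 times.

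AKR1C4, the copy that is typical of liver and takes part in bile acid synthesis, was low throughout. The MHCC-97H controls had 3.69 and 4.44 FPKM and the MHCC-97L controls 6.55 and 4.78 FPKM, and each Flag-OGT library is listed at 0, so no fold can be given. AKR1C2, AKR1C3 and AKR1C4 were under 0.5 FPKM in at least 1 Flag-OGT group and passed the filter on low values through the controls, where they were high.

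AKR1A1 and AKR7A2 went the other way. AKR1A1 encodes the general aldehyde reductase found in most tissues. It was 34.62 and 36.17 FPKM in MHCC-97H controls and 67.42 and 65.23 FPKM with Flag-OGT, 1.87-fold higher in the mean. MHCC-97L had 37.45 and 40.49 FPKM in controls and 89.56 and 89.26 FPKM with Flag-OGT, 2.29-fold higher. Every Flag-OGT library was above every control.

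AKR7A2 and AKR7A3 reduce the dialdehyde form of aflatoxin, and AKR7A2 also reduces succinic semialdehyde, a breakdown product of the transmitter GABA. AKR7A2 was 22.60 and 18.98 FPKM in MHCC-97H controls and 67.00 and 64.42 FPKM with Flag-OGT, 3.16-fold higher in the mean. MHCC-97L had 18.29 and 20.04 FPKM in controls and 48.19 and 48.59 FPKM with Flag-OGT, 2.52-fold higher. AKR7A3, its neighbour with 91.5% coding identity, was lower instead: 3.31 and 3.32 FPKM in MHCC-97H controls and 0.84 and 0.81 FPKM with Flag-OGT, and 7.33 and 7.14 FPKM in MHCC-97L controls and 1.59 and 2.15 FPKM with Flag-OGT. Its means were 4.02-fold and 3.87-fold lower. The members of this pair, adjacent on chromosome 1, therefore moved in opposite directions in both lines.

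**Figure D1:**
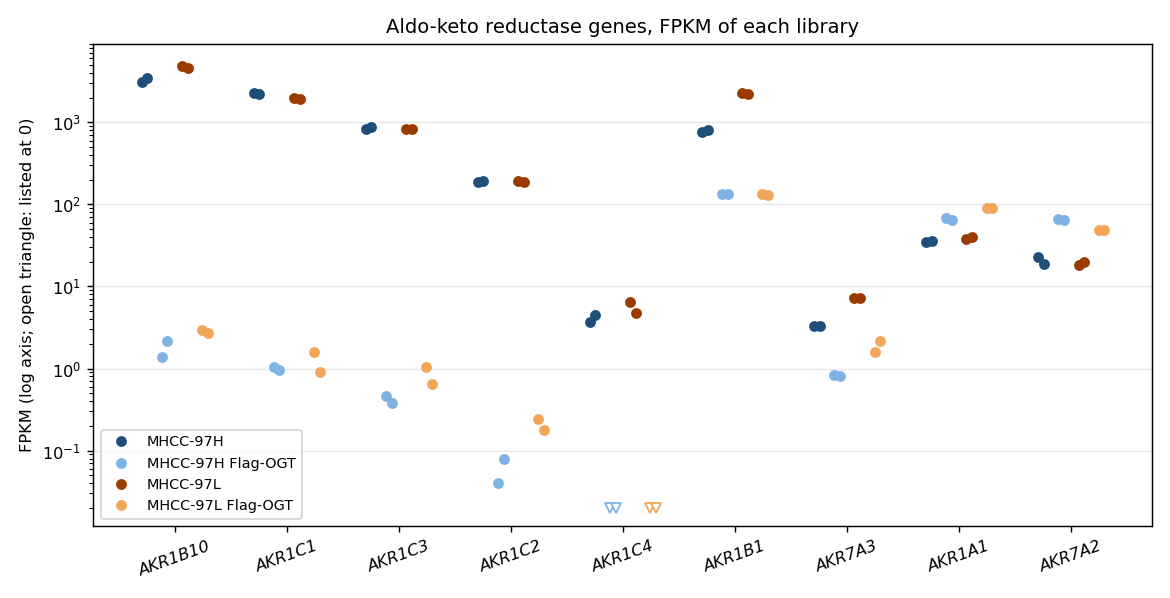
FPKM of each library (log axis) for the 9 aldo-keto reductase genes, with 2 points per group and colours for line and state; open triangles mark libraries listed at 0. AKR1B10, AKR1C1, AKR1C2 and AKR1C3 drop from 184.76 FPKM or more in controls to 2.96 FPKM or less with Flag-OGT, AKR1B1 stops between 131.35 and 135.63 FPKM, and AKR1A1 and AKR7A2 sit higher with Flag-OGT.

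Set against all 13553 genes with a mean of at least 0.5 FPKM, drops over 1000-fold were uncommon, while lower levels were not. Values are rounded to 0.01 FPKM, so only genes with a high control level can pass the 1000-fold bound and stay above 0. The shares over all tested genes were not matched for control level. With Flag-OGT 84.6% of tested genes were called in MHCC-97H and 84.8% in MHCC-97L (limma, Benjamini-Hochberg adjusted p under 0.05), and nothing is read from calls of the members, which were chosen on these contrasts. In both lines 7 of the 9 members were lower without overlap of libraries, as were 39.5% and 38.3% of tested genes, and 2 were higher, as were 52% and 53.8%. A mean over 1000-fold lower and still above 0 was found for 4 members in MHCC-97H and 2 in MHCC-97L, against 0.325% and 0.391% of tested genes. The bound of 100-fold was passed by 4 members in each line, against 1.96% and 2.12%, and that of 10-fold by 4 and 5 members, against 5.36% and 6.15%. The median log2 change of the 9 was -2.52 and -4.06, beside 0.15 and 0.19 over all tested genes.

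The summed level of the family was lower with Flag-OGT, and its make-up differed. The 9 genes together held 7148 and 7617 FPKM in MHCC-97H without Flag-OGT, 9782 and 10215 FPKM in the MHCC-97L controls, and 270 to 280 FPKM in the Flag-OGT libraries. As a share of all FPKM in the library this was 1.39% to 1.49%, 1.74% to 1.82% and 0.0454% to 0.0513%. AKR1B10 made up 42.8% to 47.7% of the sum in controls. AKR1C1 made up 28.8% to 31.5% in MHCC-97H and 19.2% to 19.4% in MHCC-97L, and AKR1B1 10.5% to 10.6% and 22.3% to 22.4%. With Flag-OGT, AKR1B1 made up 47.6% to 50.3%, AKR1A1 24.2% to 32.4% and AKR7A2 17.2% to 24.5%, and these 3 genes held nearly all of what was left.

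**Figure D2:**
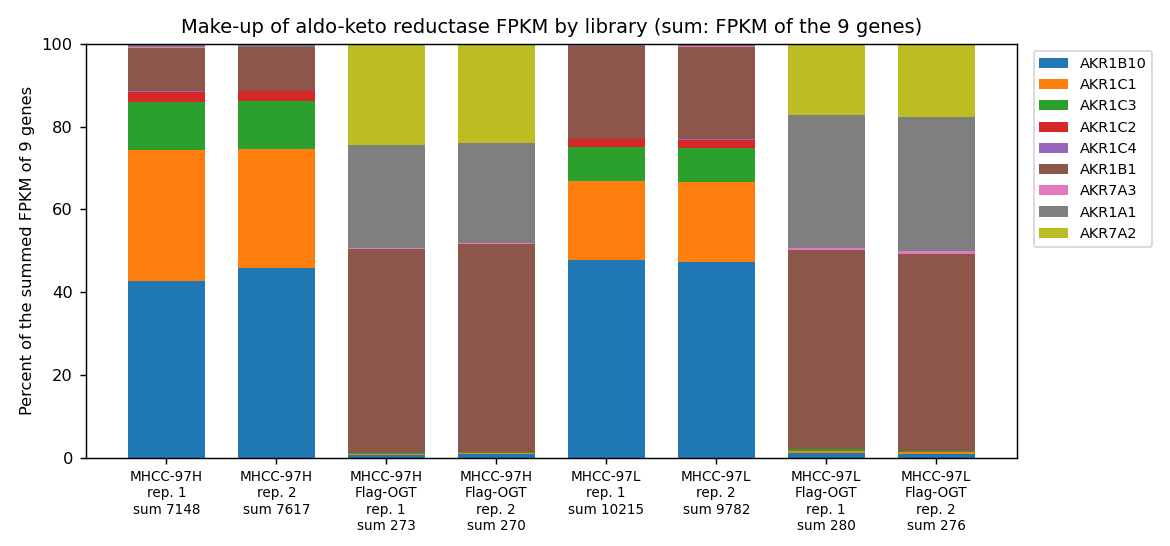
Share of each gene, in percent, in the summed FPKM of the 9 aldo-keto reductases for each of the 8 libraries, with the sum written under each bar. AKR1B10, AKR1C1 and AKR1B1 fill most of the control bars (sums from 7148 to 10215 FPKM), and AKR1B1, AKR1A1 and AKR7A2 fill the Flag-OGT bars (sums from 270 to 280 FPKM).

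The 4 AKR1C genes had sequences poor in CpG before their starts. The windows of AKR1C1, AKR1C2, AKR1C3 and AKR1C4 held 32% to 40.8% G and C and 0 to 2 CpG dinucleotides, where the median RefSeq window held 58% and 11. Of all 35116 RefSeq windows 22.9% held at most 2 CpG, and 2.48% of 10591 tested genes had at most 2 in every window. AKR1A1 had 17 CpG, AKR7A3 27, AKR1B1 28 and 12 at its 2 starts and AKR7A2 31. The AKR1C genes were at least 912-fold lower with Flag-OGT or listed at 0, and the 4 genes with 17 or more in a window differed by 1.87-fold to 16.8-fold in either direction; among these AKR7A3 also ended low, at 0.825 FPKM in MHCC-97H, and AKR1B10 has no window. Among tested genes with a window, those with at most 2 CpG (263 genes) were over 100-fold lower, 0 included, in 17.5% in MHCC-97H and 17.1% in MHCC-97L. Genes with 3 to 16 CpG (2532 genes) were so in 6.12% and 5.77%, and those with 17 or more CpG (7796 genes) in 1.09% and 1.19%. These bounds were chosen after the values of the members were seen, and the AKR1C genes are related copies and not independent cases. The 263 genes include the AKR1C genes. A gene listed at 0 with Flag-OGT passes the bound at any control level, and the classes were not matched for control level. A link between CpG and the drop was not tested.

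Which aldo-keto reductases differed between the lines could be tested, since the members were not chosen on that contrast. In the controls 4 of 9 were called and all 4 were higher in MHCC-97L, beside 65.4% of all tested genes called, 38.9% in that direction. AKR1B1 was 2.86-fold higher in MHCC-97L, a log2 difference (MHCC-97H minus MHCC-97L) of -1.52 ± 0.05 (SE; limma, adjusted p = 1.2e-08). AKR7A3 was 2.18-fold higher (-0.93 ± 0.09, limma adjusted p = 1.5e-05) and AKR1B10 1.45-fold higher (-0.54 ± 0.12, limma adjusted p = 0.00274). The call of AKR1B10 was lost after quantile normalization (-0.28, limma adjusted p = 0.059). The call of AKR1C4, 1.39-fold higher (-0.39, limma adjusted p = 0.0168), was lost without the first MHCC-97H control (-0.28, limma adjusted p = 0.117), without the first MHCC-97L control (-0.19, limma adjusted p = 0.144) and in 4 other settings. For AKR1C2 and AKR1C3 the 95% intervals of the difference were -0.15 to 0.12 and -0.17 to 0.24, and AKR1C3 was called only after quantile normalization (0.24, limma adjusted p = 0.0458). AKR1C1 had an interval of -0.06 to 0.46 (limma adjusted p = 0.149); it was called, as higher in MHCC-97H, under a common sum (0.34, limma adjusted p = 0.0205), under median-of-ratios scaling (0.30, limma adjusted p = 0.0493) and without either MHCC-97L Flag-OGT library (0.20, limma adjusted p = 0.00804 and 0.00799). AKR1A1 (-0.13, limma adjusted p = 0.0586) and AKR7A2 (0.11, limma adjusted p = 0.263) were not called, but were without the second MHCC-97H control (-0.17 and 0.23, limma adjusted p = 0.0455 and 0.0178), AKR1A1 also without the first MHCC-97L control (-0.19, limma adjusted p = 0.042) and AKR7A2 also under a common sum (0.24, limma adjusted p = 0.0237). Rescaling changed the balance over all genes: of called genes 40.5% were higher in MHCC-97H as deposited, and 49.3% to 52.8% after the 3 rescalings.

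With Flag-OGT 6 members averaged at least 0.5 FPKM in both lines, and 4 of them differed between the lines, 3 higher in MHCC-97L and 1 in MHCC-97H, beside 69.7% of all tested genes (36.1% and 33.6%). AKR1A1 was higher in MHCC-97L (log2 difference -0.43 ± 0.06, limma adjusted p = 8.7e-05; -0.23 under a common sum) and AKR7A2 higher in MHCC-97H (0.43 ± 0.08, limma adjusted p = 8.3e-04). AKR7A3 (-0.65, limma adjusted p = 1.4e-04; -1.08 with a pseudocount of 0.1) and AKR1B10 (-0.48, limma adjusted p = 0.00438) were higher in MHCC-97L, both with means under 3 FPKM. Without the first MHCC-97H Flag-OGT library the AKR1B10 difference was -0.27 (limma adjusted p = 0.0299). AKR1C1 was not called (-0.16, limma adjusted p = 0.244) except without the second MHCC-97L Flag-OGT library (-0.38, limma adjusted p = 0.00102). AKR1C2 (0.06 and 0.21 FPKM), AKR1C3 (0.42 and 0.85 FPKM) and AKR1C4 (listed at 0) passed the filter only through the controls, and no call is read from them here. For AKR1B1 the difference was 0.02 with a 95% interval of -0.08 to 0.13 (limma adjusted p = 0.676); it was called as higher in MHCC-97H under a common sum (0.22, limma adjusted p = 0.0023), median-of-ratios scaling (0.13, limma adjusted p = 0.0391) and quantile normalization (0.22, limma adjusted p = 0.00638). Under a common sum 62.6% of called genes were higher in MHCC-97H, against 48.2% as deposited, and the median of all tested genes moved from -0.02 to 0.11.

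**Figure D3:**
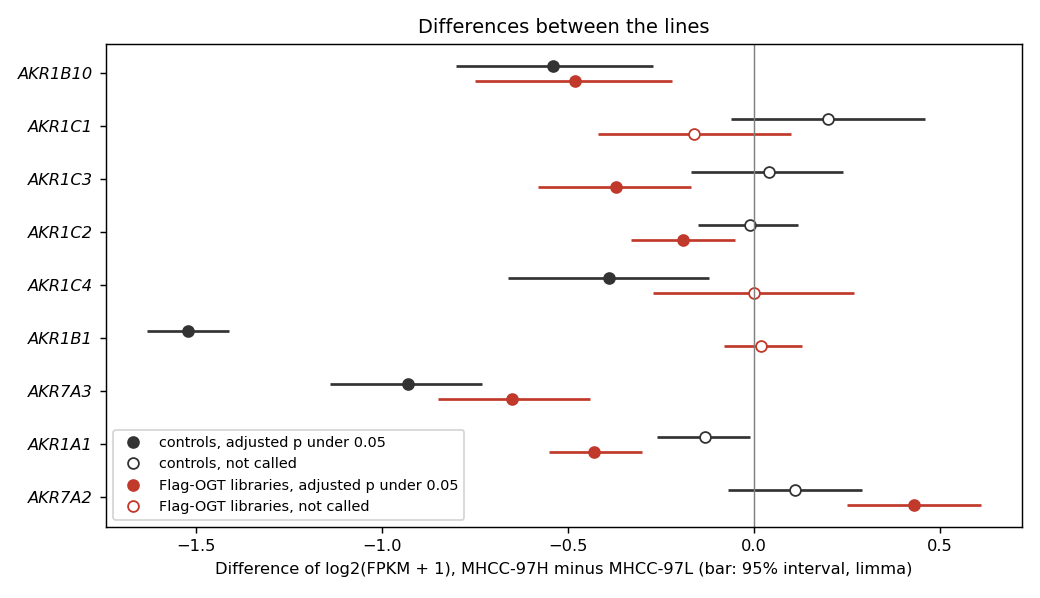
Difference of log2(FPKM + 1), MHCC-97H minus MHCC-97L, for the 9 genes in controls (dark) and in Flag-OGT libraries (red), with 95% intervals from limma; filled points have an adjusted p under 0.05. AKR1C2, AKR1C3 and AKR1C4 were under 1 FPKM with Flag-OGT, and their red points are not read. AKR1B1 moves from -1.52 in controls to 0.02 with Flag-OGT, and AKR1A1 and AKR7A2 differ by -0.43 and 0.43 with Flag-OGT.

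The change with Flag-OGT was called as different between the lines for AKR1B1, AKR1A1 and AKR7A2. These were among the 6 members averaging at least 0.5 FPKM with Flag-OGT in both lines, and 63.3% of all tested genes were called. AKR1C3 was called too, but it passed the filter only through the controls, as did AKR1C2 and AKR1C4, and no call is read from these 3 genes. This test uses the same 8 libraries, and each value is the line difference with Flag-OGT minus that in controls. For AKR1B1 the drop was smaller in MHCC-97H by 1.54 ± 0.07 on the log2 scale (limma adjusted p = 1.4e-07). The gain of AKR1A1 was smaller in MHCC-97H (-0.29 ± 0.08, limma adjusted p = 0.00972), and that of AKR7A2 was larger there (0.33 ± 0.11, limma adjusted p = 0.0301). For AKR1C3, under 1 FPKM with Flag-OGT, the difference was -0.41 ± 0.13 (limma adjusted p = 0.0189), but -0.25 without the first MHCC-97L Flag-OGT library (limma adjusted p = 0.0354) and -0.88 with a pseudocount of 0.1 (limma adjusted p = 0.0116). The AKR7A2 call was lost with no filter (limma adjusted p = 0.0807) and without any 1 of 6 libraries, namely the second control of either line and each Flag-OGT library (0.21 to 0.35, limma adjusted p = 0.0581 to 0.11). The AKR1C3 call was lost with no filter (limma adjusted p = 0.0702), without the second control of MHCC-97H (-0.37, limma adjusted p = 0.0555) or MHCC-97L (-0.39, limma adjusted p = 0.0589) and without the second MHCC-97H Flag-OGT library (-0.37, limma adjusted p = 0.0679). For AKR1B10 the difference was 0.05 with an interval of -0.32 to 0.43. AKR1C1 (-0.36, limma adjusted p = 0.0769), AKR1C2 (-0.18, limma adjusted p = 0.107), AKR1C4 (0.39, limma adjusted p = 0.07) and AKR7A3 (0.29, limma adjusted p = 0.0784) were not called. Without the second MHCC-97L Flag-OGT library the difference was larger, -0.59 for AKR1C1 and 0.43 for AKR7A3. The lack of a call for AKR1C1 and AKR7A3 depended on that library. AKR1C4 was listed at 0 in every Flag-OGT library, so its value is only the line difference in controls with the sign turned. For AKR1C2 the difference was -0.28 to -0.25 after the 3 rescalings and -0.94 with a pseudocount of 0.1. It was called in each of these settings, but no call of AKR1C2 is read here. AKR1C1 was called under a common sum (-0.39, limma adjusted p = 0.0487). Summed, AKR1C1 and AKR1C2 differed by -0.43 (limma adjusted p = 0.0398).

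Tested neighbours outside the family changed less than the AKR1B10, AKR1C1, AKR1C2 and AKR1C3 genes, by between -1.92 and 2.08 on the log2 scale, while AKR1E2 and AKR1B15, family genes beside members, fell steeply. The AKR1C genes lie on chromosome 10 between AKR1E2, another aldo-keto reductase, and UCN3 (RefSeq order of protein-coding genes with values under their current symbol). AKR1E2 fell in MHCC-97H (4.46 ± 0.00707 to 0.015 ± 0.0212 FPKM) and in MHCC-97L, where 2.38 ± 0.0495 FPKM became a listed 0. On that side KLF6, a zinc-finger factor, fell by 1.62 and 1.11 on the log2 scale (limma adjusted p = 3.2e-09 and 6.9e-08), and PFKP, the platelet phosphofructokinase, by 1.92 and 1.61 (limma adjusted p = 2.8e-10 and 1.3e-09). PITRM1, a mitochondrial protease, fell by 0.65 in MHCC-97H (limma adjusted p = 6.7e-07) and changed by -0.10 in MHCC-97L (limma adjusted p = 0.0975). On the other side UCN3 and TUBAL3 were too low to test, and NET1 changed by -0.16 in each line (limma adjusted p = 0.0617 and 0.0624). Around the AKR1B genes on chromosome 7, EXOC4, a subunit of the exocyst, rose by 0.71 in MHCC-97H (limma adjusted p = 2.7e-06) and fell by 0.70 in MHCC-97L (limma adjusted p = 3.4e-06). SLC35B4, a nucleotide sugar transporter, fell by 0.23 and 0.32 (limma adjusted p = 0.00857 and 0.00117), and BPGM, which makes bisphosphoglycerate, changed by 0.19 in MHCC-97H (limma adjusted p = 0.0585) and rose by 0.84 in MHCC-97L (limma adjusted p = 5.4e-06). CALD1, the caldesmon gene, fell by 0.50 and 0.39 (limma adjusted p = 9.6e-05 and 5.9e-04). Around the AKR7A genes on chromosome 1, the serotonin receptor gene HTR6, listed at 0 in all controls, rose to 3.23 and 0.83 FPKM, and UBR4 (-0.61 and -0.71), CAPZB (-0.58 and -0.19) and NBL1 (-0.99 and -0.83) fell in both lines. MRTO4 fell by 0.45 in MHCC-97H and rose by 0.43 in MHCC-97L, and EMC1 changed by -0.07 in MHCC-97H (limma adjusted p = 0.358) and fell by 0.41 in MHCC-97L. Next to AKR1A1, NASP and MMACHC rose in both lines (NASP by 0.93 and 1.65, MMACHC by 1.44 and 1.16 on the log2 scale), and PRDX1, a peroxiredoxin, fell by 1.02 in MHCC-97H (limma adjusted p = 4.8e-08) and changed by 0.06 in MHCC-97L (limma adjusted p = 0.341).

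**Figure D4:**
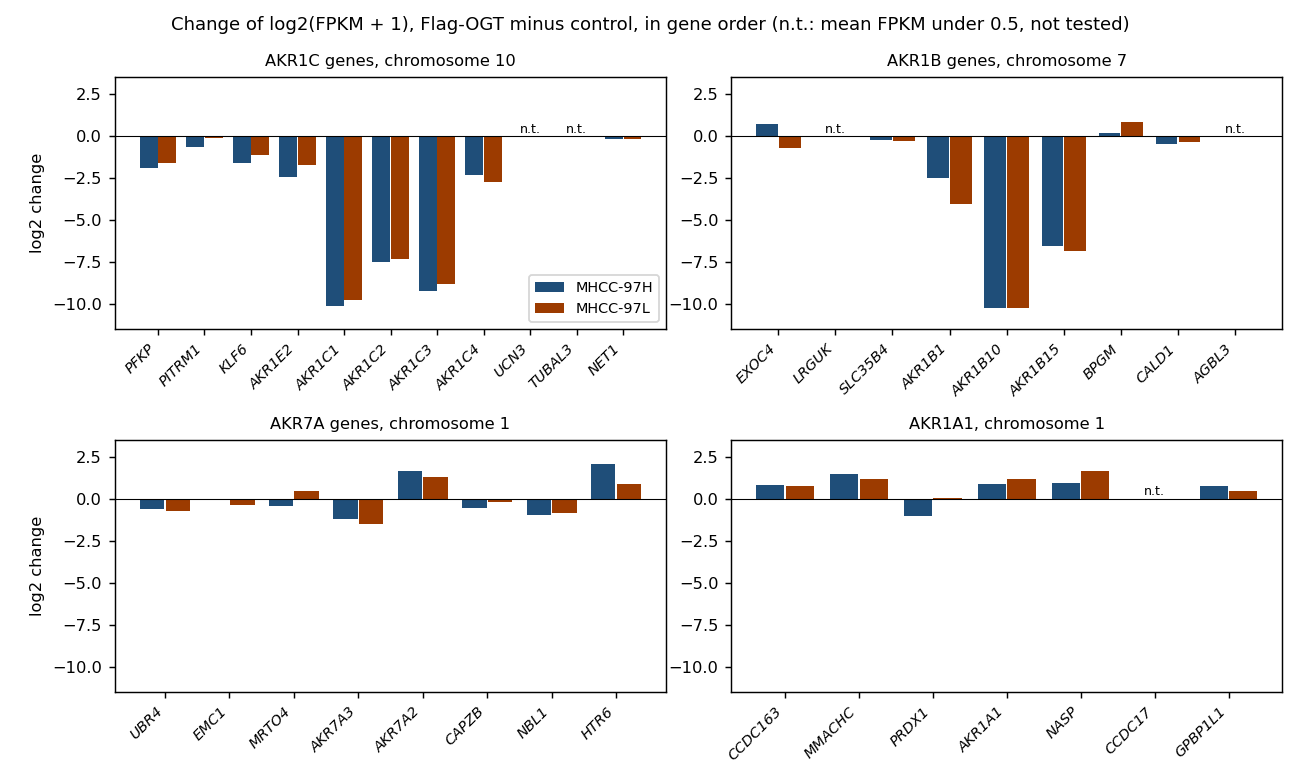
Change of log2(FPKM + 1), Flag-OGT minus control, in MHCC-97H and MHCC-97L for the aldo-keto reductase genes and up to 3 neighbours on either side. Neighbours follow RefSeq order among protein-coding genes with values under their current symbol, and n.t. marks genes too low to test. The AKR1C and AKR1B genes form runs of large drops (AKR1C1 -10.12 and -9.76, AKR1B10 -10.22 and -10.27), and tested neighbours outside the family stay between -1.92 and 2.08.

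Most other tested aldo-keto reductases were lower with Flag-OGT, with median log2 changes of -1.20 in MHCC-97H and -1.14 in MHCC-97L. Of 11 further genes 7 had values and 6 were tested; in MHCC-97H 1 rose and 5 fell, in MHCC-97L 2 rose and 4 fell. Over all tested genes 48.2% rose and 36.3% fell in the first line, and 50.1% and 34.7% in the second. KCNAB2, a beta subunit of potassium channels with an aldo-keto reductase fold, fell from 24.7 ± 1.21 to 5.04 ± 0.219 FPKM and from 17.7 ± 1.32 to 3.89 ± 0.297 FPKM. KCNAB3, of the same kind, rose from 0.205 ± 0.0495 to 1.23 ± 0.0778 FPKM and from 0.52 ± 0.0566 to 2.84 ± 0.516 FPKM. AKR7L, a relative of AKR7A3, fell from 1.65 ± 0.318 to 1.15 ± 0.148 FPKM and from 3.25 ± 0.375 to 1.95 ± 0.269 FPKM. KCNAB1 stayed under 1 FPKM in all groups, as did AKR1D1, the steroid reductase of bile acid synthesis, which was too low to test.

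Genes of the NRF2 list, which holds NRF2, genes that act with it or against it and its known targets, were mostly lower with Flag-OGT. Of 34 tested, 32 fell and 2 rose in MHCC-97H, with a median log2 change of -2.80, and 30 fell and 1 rose in MHCC-97L, with a median of -2.53, beside medians of 0.15 and 0.19 over all tested genes. NFE2L2, which encodes NRF2, fell from 33.2 ± 0.467 to 8.12 ± 0.311 FPKM and from 21.8 ± 0.325 to 5.15 ± 0.799 FPKM. KEAP1, which holds NRF2 in check, rose from 6.53 ± 0.962 to 30.3 ± 0.7 FPKM and from 8.89 ± 0.615 to 25 ± 0.205 FPKM. In MHCC-97H the only other gene of the list that rose was PIR. CUL3 and BACH1, which also act against NRF2, were thus among the 32 that fell there. The quinone reductase gene NQO1 fell from 689 ± 7.17 to 1.64 ± 0.424 FPKM and from 641 ± 2.71 to 2.88 ± 0.099 FPKM, and the glutathione peroxidase gene GPX2 from 819 ± 15.1 to 0.555 ± 0.0636 FPKM and from 1501 ± 5.88 to 0.805 ± 0.0495 FPKM.

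Among genes that act on the same substrates, directions were mixed. For this and the lists that follow, 36.3% of all tested genes fell and 48.2% rose in MHCC-97H, and 34.7% fell and 50.1% rose in MHCC-97L. Of 21 retinoid genes 10 fell and 8 rose in MHCC-97H and 13 fell and 7 rose in MHCC-97L. ALDH1A1, which oxidizes retinal to retinoic acid where AKR1B10 reduces it, fell from 716 ± 43 to 0.52 ± 0.0849 FPKM and from 891 ± 12.5 to 0.61 ± 0.24 FPKM, while its relative ALDH1A2 rose from 0.21 ± 0.0424 to 25.3 ± 0.445 FPKM and from 0.365 ± 0.163 to 13.8 ± 0.269 FPKM. Of 12 genes of the polyol pathway and of carbonyl detoxification, 3 fell and 5 rose in MHCC-97H and 3 fell and 4 rose in MHCC-97L. SORD, the sorbitol dehydrogenase that follows AKR1B1 in the polyol pathway, was 36.4 ± 1.39 and 37.9 ± 0.834 FPKM in MHCC-97H and 25.4 ± 0.0495 and 24.4 ± 1.29 FPKM in MHCC-97L (limma adjusted p = 0.374 in each). The glyoxalase gene GLO1 rose in MHCC-97L from 49.3 ± 1.58 to 250 ± 13.5 FPKM, and KHK, the fructokinase, rose in both lines (1.75 ± 0.0141 to 9.33 ± 0.156 and 2.15 ± 0.318 to 6.29 ± 0.643 FPKM).

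In steroid hormone metabolism 11 of 22 tested genes fell and 7 rose in MHCC-97H, and 12 fell and 8 rose in MHCC-97L. UGT2B7, which adds glucuronic acid to steroids, fell in MHCC-97H (22.6 ± 1.45 to 0.03 ± 0.0424 FPKM) and in MHCC-97L, where 10.7 ± 0.481 FPKM became a listed 0. HSD17B8, a hydroxysteroid dehydrogenase of another enzyme family, rose from 0.855 ± 0.0354 to 13.8 ± 0.148 FPKM and from 1.06 ± 0.283 to 10.8 ± 0.757 FPKM. Among 14 prostaglandin genes 10 fell and 3 rose in each line, where 36.3% and 34.7% of all tested genes fell and 48.2% and 50.1% rose. PTGR1, a reductase that inactivates leukotrienes and prostaglandins, fell from 598 ± 66.7 to 0.225 ± 0.191 FPKM and from 715 ± 39.2 to 0.35 ± 0.198 FPKM, and HPGD, which degrades prostaglandins, from 46.2 ± 4.74 to 0.305 ± 0.0495 FPKM and from 16.3 ± 0.262 to 0.335 ± 0.106 FPKM. PTGS2, the inducible cyclooxygenase gene, was at 1.02 ± 0.0354 FPKM or less in every group and was too low to test. Of 10 bile acid genes 8 fell and 2 rose in MHCC-97H and 6 fell and 1 rose in MHCC-97L; the sterol hydroxylase gene CYP27A1 fell from 49.3 ± 0.636 to 0.745 ± 0.106 FPKM and from 42 ± 1.42 to 0.725 ± 0.219 FPKM.

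Of 26 other carbonyl reductases and aldehyde dehydrogenases 15 were up and 9 down in MHCC-97H, 13 up and 10 down in MHCC-97L, shares near those of all tested genes (48.2% up and 36.3% down, 50.1% and 34.7%). DHRS2, a short-chain reductase, rose from 0.395 ± 0.0495 to 8.66 ± 0.516 FPKM and from 2.09 ± 0.0495 to 11.1 ± 0.00707 FPKM. ALDH3A1, an aldehyde dehydrogenase of lipid aldehydes, fell from 450 ± 37.7 to 1.2 ± 0.233 FPKM and from 982 ± 8.49 to 1.5 ± 0.389 FPKM. Of 16 genes that supply NADPH, the cofactor of the family, 8 were up and 7 down in MHCC-97H, 6 up and 8 down in MHCC-97L. MTHFD2, of mitochondrial folate metabolism, rose from 0.015 ± 0.0212 to 91.7 ± 1.81 FPKM and from 0.065 ± 0.0495 to 53 ± 5.25 FPKM.

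**Figure D5:**
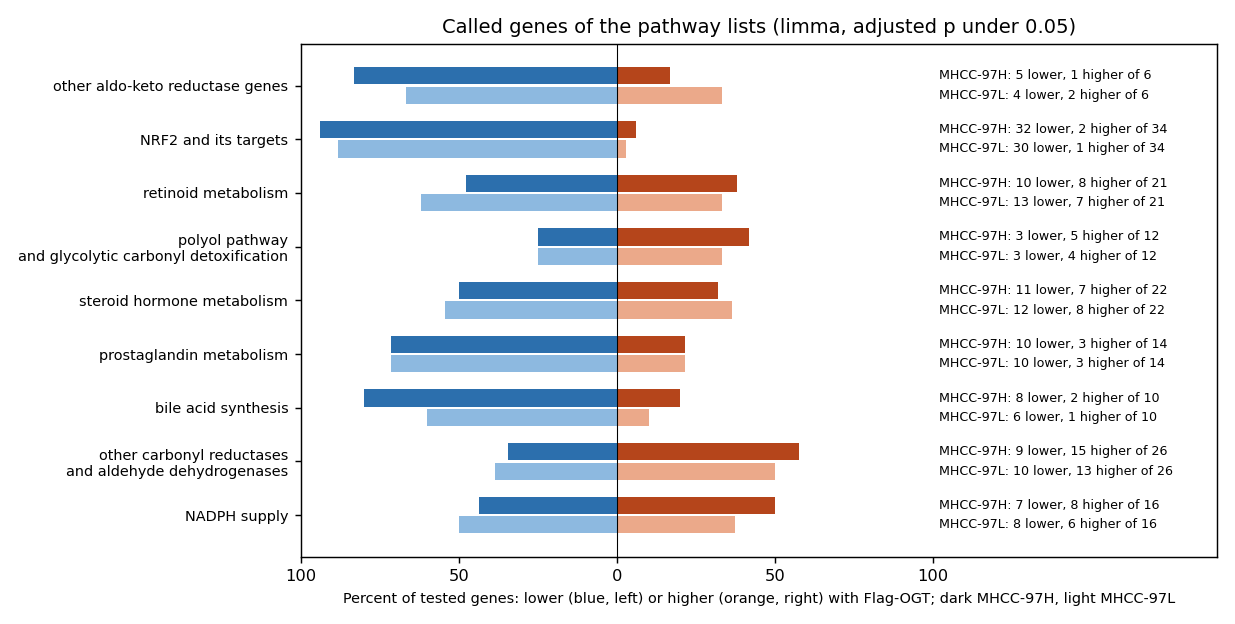
Percent of tested genes of each pathway list that were called lower (left, blue) or higher (right, orange) with Flag-OGT, dark for MHCC-97H and light for MHCC-97L, with the counts beside the bars. The NRF2 list has 32 and 30 of 34 genes lower, where 36.3% and 34.7% of all tested genes were lower and 48.2% and 50.1% higher.

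Across the 8 libraries the members fell into runs of like profile, measured as the root mean square difference of log2(FPKM + 1) after centring each gene. AKR1B10 and AKR1C1 differed by 0.363 and AKR1C1 and AKR1C3 by 0.47, and AKR1A1 and AKR7A2 by 0.387, while AKR1A1 and AKR1B10 differed by 5.64. The gene most like AKR1B10, and also most like AKR1C1, was S100A4, a calcium-binding protein gene (0.323 and 0.274), with means of 3400 and 4779 FPKM in controls and 3.22 and 4 FPKM with Flag-OGT. GPX2 was among the 5 genes most like AKR1B10 (0.484), AKR1C1 (0.485) and AKR1C3 (0.377), and ALDH1A1 (0.171) and PTGR1 (0.217) were among those most like AKR1C3. AKR1C2 was nearest to the annexin gene ANXA1 (0.111), with NQO1 at 0.227. AKR1B1 was nearest to C11orf53 (0.111), AKR1C4 to SOHLH2 (0.0942), AKR7A3 to CHMP2A (0.0953), AKR7A2 to MED24 (0.0754) and AKR1A1 to ZNF585B (0.0421). By construction this measure depends on the size of the change with Flag-OGT, so genes that start at a like level and end near 0 come out as alike.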

How the data were processed

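The authors deposited 1 FPKM value per gene and library, rounded to 2 decimals. Per the labels' protocols, RNA was taken with Trizol and libraries made with a SMARTer kit. The submitters' processing notes name RSEM 1.2.4, HISAT2 2.1.0, Bowtie2, DESeq2 1.18.1 and hg19, with no word on which tool gave the FPKM. Read depth is unknown. Of 18928 features, 26 whose symbols had become dates were left out. Chromatin libraries were not analysed here.

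A limma 3.58.1 model (R 4.3.3) with a mean for each of the 4 groups was fitted to log2(FPKM + 1) of all 8 libraries, for 13553 genes averaging at least 0.5 FPKM. The spread was moderated along its trend with the mean, on 4 residual degrees of freedom. Benjamini-Hochberg adjustment ran over all tested genes, and adjusted p under 0.05 was called. Log2 changes on this scale understate the change of low genes. Nothing says that the libraries of a group came from separate cultures, so p-values measure the spread between libraries, which may be technical. The fit was tested on simulated data.

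Members, lists and the naming rule were chosen with earlier results of these data known. Named were all members, other aldo-keto reductases, up to 2 called genes whose libraries did not overlap at either end of each list (not all are printed), 7 pathway genes in any case, and the 5 genes most like each member (the nearest are printed). Neighbours were taken by RefSeq order, 3 on either side, among protein-coding genes with values under their current symbol. Genes deposited under an older symbol were passed over, so the neighbours named are not always the nearest genes. Markers came from a list.

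As alternatives the fit was repeated with a pseudocount of 0.1, without the filter, with a filter of 2 FPKM, with 3 rescalings (common sum, median-of-ratios, quantile), without the trend, on the compared groups alone, with a replicate block, with AKR1C1 and AKR1C2 summed, and without each library. Sequences came from GENCODE release 29 and RefSeq GRCh38.p14, and no hg19 coordinates were used. Python 3.11.15 (pandas 2.3.3, numpy 2.4.6, matplotlib 3.10.9) served for tables and plots.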

Additional observations from a re-analysis of the deposited data

Results flagged for a closer look

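For AKR1B1, AKR1A1 and AKR7A2 the change with Flag-OGT was called as different between MHCC-97H and MHCC-97L in a test of the difference itself. AKR1B1 had the largest of these, 1.54 on the log2 scale, with all 4 Flag-OGT libraries between 131.35 and 135.63 FPKM from control means of 781 and 2235 FPKM. AKR1C3 differed by -0.41 (-0.25 without the first MHCC-97L Flag-OGT library), and both its Flag-OGT means were under 1 FPKM (0.42 and 0.85). It passed the filter only through the controls, so no call is read from it. AKR1A1 differed by -0.29 and AKR7A2 by 0.33, and of these 2 genes AKR1A1 was higher with Flag-OGT in MHCC-97L and AKR7A2 in MHCC-97H. The AKR7A2 call was lost with no filter (limma adjusted p = 0.0807). It also did not hold without the second control of either line or without any single Flag-OGT library (0.21 to 0.35). Of the 13553 tested genes 63.3% were called in the same test.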

How the results depend on the processing

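The 9 members kept the sign of their change with Flag-OGT in all 310 of 310 alternative values. The number of members whose change differed between the lines, 4, became 2 with no filter and ranged from 2 to 5 as each library was left out, with 2 without the second MHCC-97H Flag-OGT library. The other 134 counts of called genes or members stayed within 1.5 times of the values reported. Counts of members here include AKR1C2, AKR1C3 and AKR1C4, from which no call is read where Flag-OGT libraries enter. Of single-member values, 22 lost and 25 gained a call and none reversed; the cause was not tested. Rescaling moved the balance of calls by over 10 percentage points only between the lines: in controls, from 3589 higher and 5270 lower in MHCC-97H to 4674 and 4230 with a common sum and 4502 and 4018 after quantile normalization, and with Flag-OGT from 4551 and 4894 to 5932 and 3547 with a common sum. Median-of-ratios scaling moved the median change with Flag-OGT of all tested genes from 0.15 to 0.01 in MHCC-97H and from 0.19 to 0.03 in MHCC-97L. With the replicate number as a block, 11436, 11473, 8811, 9403 and 8553 genes were called in place of 11460, 11494, 8859, 9445 and 8576, and 5 members in place of 4 differed in their change between lines, with AKR1C1 added (limma adjusted p = 0.0424). The labels do not say that a number marks a shared culture or day, and deviations of same-numbered libraries correlated from -0.206 to 0.309. Values near 0 FPKM are limited by the rounding to 0.01, and 2 libraries per group limit precision.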
